A study of Pimephales promelas with 270 samples.

Results

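The 5-day controls are 30 sequencing libraries from unexposed larvae of a freshwater fish, Pimephales promelas or fathead minnow, which is widely kept for toxicity tests. They were chosen by their labels alone, as the control libraries of larvae labelled 5 days and sampled after 6, 24 or 48 h, with 10 libraries in each group. They make up 30 of the 266 libraries in the count table (the labels list 270 samples) and 30 of its 88 control libraries. The whole study also held larvae labelled 4 and 6 days and larvae in propranolol, a blocker of beta-adrenergic receptors, at 0.66 or 3.3 mg/l. The control groups received neither concentration, and no strain, sex or carrier solvent is given for them. The treatment text attached to the samples describes ethinyl estradiol in place of propranolol, and the dose labels were followed here. Whether the labelled age was reached when the exposure began or when it ended is not stated. The sample titles do not say whether the age counts from fertilization or from hatching. They therefore do not place these larvae before or after the first meal. Neither the number of larvae behind a library nor the sharing of a vessel by libraries of a group is given, so the p-values speak of the spread between these libraries alone, some of which may be technical. Each duration carries a library code of its own (A4, A5 and A6), so duration and anything else that differed between the codes cannot be told apart.

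In the days around hatching a fish larva still lives on yolk while its swimming muscle, eyes, gut, liver and gills mature toward the first meal. Many transcripts are known to change in abundance over this time in fish as cell proliferation slows in some tissues and the proteins of working organs are made. A control series sampled at each exposure time records these changes in animals that met no compound. RNA came from larvae lysed in a tube with a steel bead, so in such bulk samples fewer cells of a type and less RNA per cell cannot be told apart. The transcripts carry bare identifiers, and 0 of 34856 matched the RefSeq gene table. Gene names, functions and tissue markers are therefore not given, and the labelled material could not be checked against marker genes.

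Library totals ran from 6.61 to 19.8 M counts at 6 h, from 10.6 to 19.0 M at 24 h and from 11.6 to 19.5 M at 48 h. Neither step passed the test for mean total, for the number of transcripts detected, for the share of the 10 most abundant transcripts or for the similarity of a library to its group (2-sided permutation tests with 100000 resamples, 8 tests, adjusted p from 0.506 to 0.693, n = 10 per group). No library repeated another of its group within counting noise: over 135 pairs, chi-square divided by its degrees of freedom was 3.81 at the lowest and 14.3 at the median. In each group 2 libraries stood apart, with a correlation to the rest of their group more than 3 median absolute deviations below the group median. These were controls 5 and 13 at 6 h, controls 7 and 10 at 24 h, and controls 5 and 14 at 48 h. On the first principal component (25.4% of the variance) 5 of them lay between 66.5 and 79.9, and the other 25 libraries lay between -21.1 and 7.77. The sixth, control 5 at 6 h, stood apart on the third component, at 84.3. On the second component it lay at -10.1, inside the range of the 24 h libraries (-26.3 to 2.78) and below the other 6 h libraries, which began at 19.4. That position also lay inside the range of the 48 h libraries (-33.5 to 4.29). On a score of age built from larvae of the other ages, described with the last results, control 5 was at -0.75, near the 6 h median of -0.74 and below every 24 h library (lowest -0.68). The lowest score of each group belonged to a library that stood apart: control 13 at 6 h (-1.03), control 7 at 24 h (-0.68) and control 14 at 48 h (-0.55). The score therefore cannot decide on the label of control 5 at 6 h. That label was kept, and the main counts that rest on this library are given with and without it.

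**Figure D1:**
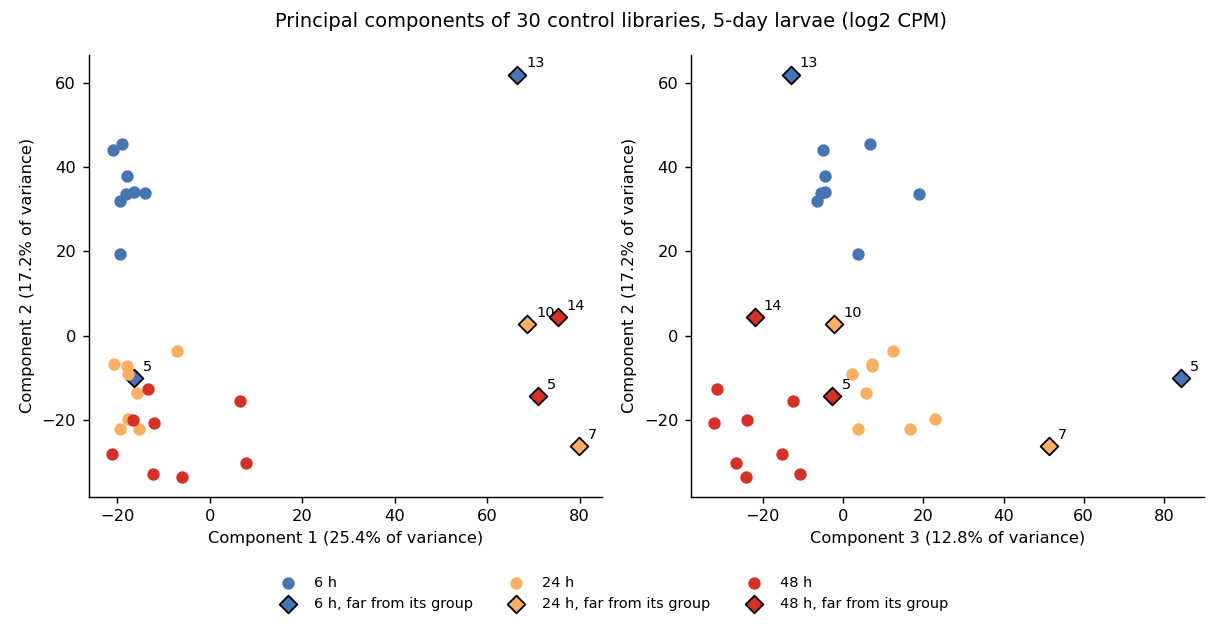
Principal components of log2 CPM (CPM, a library's counts rescaled so that totals are comparable) of the 30 control libraries, with component 2 on the vertical axis against component 1 (left) and component 3 (right); each point is a library, coloured by duration, and diamonds mark with their label number the 6 libraries far from their group. The 6 h libraries other than control 5 lie above 19 on component 2, and 5 of the 6 marked libraries lie above 66 on component 1.

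Between 6 and 24 h, 3188 of 30061 transcripts tested changed, which is 10.6% (edgeR quasi-likelihood test, Benjamini-Hochberg false discovery rate 0.05). At 24 h 1596 transcripts were higher and 1592 lower, a balance that leaned to falls with DESeq2 (1804 and 2158) and to rises with limma-voom (1748 and 1527). The rises were the larger changes. Their median log2 fold change was 0.59, against -0.48 for the falls, and 317 transcripts rose by more than 2-fold while 136 fell by as much (1.51% together). Past 4-fold there were 53 rises and 16 falls. In 237 transcripts (0.788% of those tested) every 24 h library lay outside the range of the 6 h libraries, 170 of them higher and 67 lower. Without control 5 of the 6 h group, these were 425 and 250 of 30200 tested, in a smaller group, where non-overlap is easier to reach.

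The transcripts that rose in the first step took a median of 4.51% of a library's counts at 6 h, 6.66% at 24 h and 7.36% at 48 h. For those that fell the medians were 7.36%, 5.23% and 5.26%. The lowest 24 h share of the risers, 5.99%, lay above the highest 6 h share, 4.94%. The shares of the fallers overlapped, from 4.63% to 8.34% at 6 h and from 4.08% to 5.65% at 24 h. Both lists were chosen by this step, so these shares describe how much of the RNA pool was involved and test nothing.

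The count for the first step rested strongly on 1 library. Without control 5 of the 6 h group it was 6592 (21.8%), with 3588 rises and 3004 falls, and 3179 of the 3188 calls were kept. Leaving out all 6 libraries that stood apart gave 7738 changed transcripts (25.6%), and 3054 of the 3188 calls were kept. Leaving out the other 5 alone gave 3617 (11.9%). The 6 were picked for lying far from their group, so the spread is smaller without them. The coefficient of variation between libraries went from 0.27 to 0.18 at 6 h, from 0.26 to 0.18 at 24 h and from 0.26 to 0.20 at 48 h. How much of the higher counts this accounts for was not tested.

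Between 24 and 48 h, 963 transcripts changed (3.2%), fewer than in the first step although the interval was longer, at 24 h against 18 h. Rises made up 65.7% of them, with 633 transcripts higher and 330 lower at 48 h. The typical size was close to that of the first step, with a median log2 fold change of 0.61 among the rises and -0.53 among the falls. By more than 2-fold, 137 rose and 40 fell (0.589% together). The groups did not overlap in 79 transcripts (0.263%), 61 of them higher at 48 h.

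The risers of the second step held a median of 5.82% of the counts at 6 h, 5.63% at 24 h and 7.69% at 48 h. The fallers held 2.58%, 2.47% and 1.57%. In each list the 48 h shares did not overlap the 24 h shares, a description of lists chosen by this very step. The second step gave 1592 changed transcripts (5.27%) without control 5 of the 6 h group. That library bears on this comparison mainly through the shared estimate of the spread. Without all 6 libraries that stood apart the step gave 3342 (11.1%), of which 55.0% were rises, and 945 of the 963 calls were kept. Without those 6, 295 of 30202 transcripts tested passed 2-fold, and the groups did not overlap in 286 higher and 165 lower ones. Both groups were smaller then, so non-overlap was easier to reach.

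**Figure D2:**
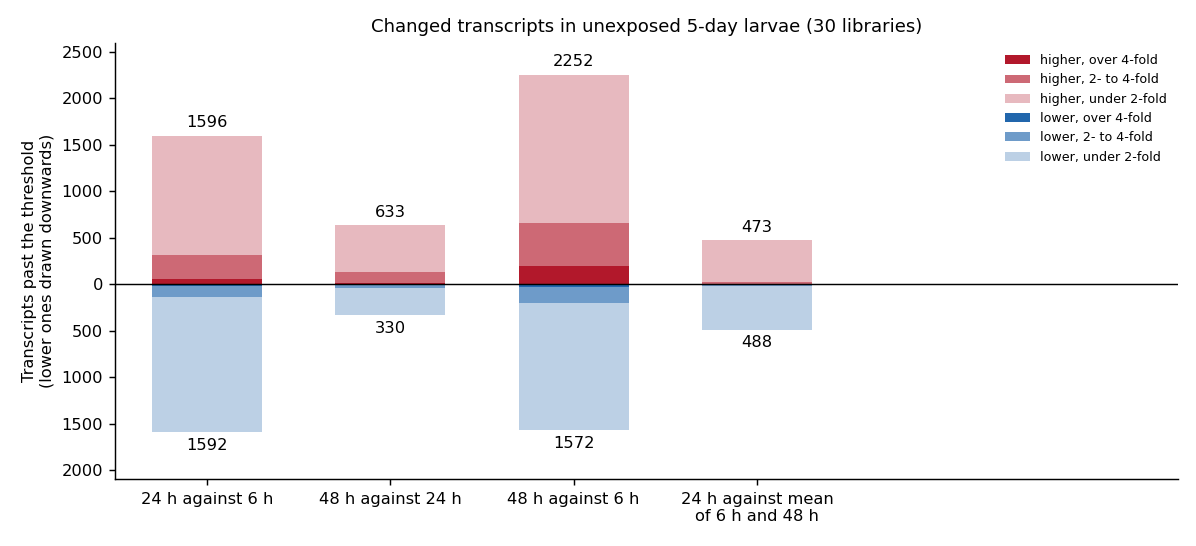
Transcripts that passed the edgeR test at a false discovery rate of 0.05 in each comparison of the 30 libraries, with transcripts higher at the first-named time drawn upward and lower ones downward, and shading by size of change. The whole span from 6 to 48 h has 2252 rises and 1572 falls, and most called changes in every comparison are under 2-fold.

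Over the whole span from 6 to 48 h, 3824 transcripts changed (12.7%), 2252 upward and 1572 downward. Large changes were mainly rises, with 657 rises against 198 falls past 2-fold (2.84% together) and 192 against 27 past 4-fold. The groups did not overlap in 507 transcripts (1.69%), 385 higher and 122 lower at 48 h. Without control 5 of the 6 h group these were 492 and 211 of 30200 tested, again with a smaller group to keep apart. The transcripts that rose over the span grew from a median of 15.3% of the counts at 6 h to 17.8% at 24 h and 21.6% at 48 h, and those that fell went from 8.67% to 7.02% and 5.33%.

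More of this change lay in the first 18 h than in the following 24 h. For the 2252 rises, the median share of the 6 to 48 h log2 change already present at 24 h was 59.4% (quartiles 37.4% and 80.8%), where an even pace over the 42 h would give 42.9%. For the 1572 falls it was 65.6% (quartiles 40.9% and 90.1%). At least 50% of the change was present at 24 h in 61.8% of the rises and 66.5% of the falls. The pace of single transcripts was tested by setting the 24 h level against the mean of the 6 and 48 h levels. Among the rises 176 passed this test, 147 lying above that mean at 24 h and 29 below it, and among the falls 128 passed, 105 lying below it and 23 above it. Without control 5 of the 6 h group, the rises gave 541 and 64 and the falls 413 and 42. The median shares were 68.6% and 75.8% without control 5 of the 6 h group, and 54.6% and 60.6% without the other 5 libraries that stood apart.

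The same contrast picked out transcripts with a level of their own at 24 h. In all, 961 transcripts (3.2%) differed at 24 h from the mean of the other 2 times, 473 above it and 488 below it. Of these, 657 were not called between 6 and 48 h, while 304 were, which is 31.6% of the 961 and 7.95% of the 3824. The mean at 24 h lay outside both other means for 879 of them, as a peak for 412 and a trough for 467. These changes were small, with a median log2 size of 0.44, and 44 (0.146%) passed 2-fold. Without control 5 of the 6 h group there were 1988 peaks and 1562 troughs among 30200 tested, and 84 changes past 2-fold. The count of all calls was 466, 587 and 544 without controls 4, 5 and 7 of the 24 h group. It was 3730 (12.4%) without control 5 of the 6 h group and 4820 (16%) without all 6 libraries that stood apart.

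The abundance of a transcript bore on how often it was called. In the first step 3.1% of transcripts under 1 CPM were called, 6.32% of those from 1 to 4 CPM, 11.3% from 4 to 16 CPM, 15.8% from 16 to 64 CPM and 15.9% above 64 CPM. The second step ran from 1.16% to 7.17% over the same classes. The called changes became smaller along the same order, with a median log2 size in the first step of 1.06 under 1 CPM and 0.40 above 64 CPM. The part of read depth in this order was not tested.

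For each step 1 rise and 1 fall are described by their levels in single libraries. They are the largest log2 changes among called transcripts with a mean log2 CPM of at least 1 whose 2 groups did not overlap, so their sizes are extremes by choice. What their products do is unknown here.

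FMt041559 had the largest rise of the first step. Its level was between 0.465 and 4.42 CPM at 6 h (median 1.66, or 19 counts), between 9.23 and 92.1 CPM at 24 h (median 58.1) and between 41.3 and 186 CPM at 48 h (median 139). Every 24 h library lay above every 6 h library, and the 24 h and 48 h libraries overlapped. It rose by 4.85 ± 0.43 on the log2 scale in the first step (SE, edgeR adjusted p = 6e-09), a 28.8-fold rise. The second step was 1.23 ± 0.35 (edgeR adjusted p = 0.045). It missed the threshold when any of 16 of the 30 libraries was left out, with an edgeR adjusted p of up to 0.086. The choice favoured high 24 h levels, so a smaller second rise is partly built in. At 24 h the transcript stood 1.81 ± 0.30 above the mean of the other 2 times on the log2 scale. That contrast holds part of the step the transcript was chosen by, so no p is given for it.

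FMt021041 had the largest fall of the first step. Its level ran from 4.90 to 16.3 CPM at 6 h (median 11.0), from 0.994 to 2.84 CPM at 24 h (median 1.63) and from 0.879 to 2.39 CPM at 48 h (median 1.23). The 6 h libraries all lay above the later ones, and the 24 h and 48 h libraries covered nearly the same range. It fell by 2.74 ± 0.19 on the log2 scale in the first step (edgeR adjusted p = 2.4e-12), 6.70-fold lower. The second step was -0.31 ± 0.20 (edgeR adjusted p = 0.43). Both steps share the 24 h libraries, and the choice favoured low levels there, so a smaller second fall is partly built in. Its median at 48 h was 16 counts in a library.

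FMt031517 had the largest rise of the second step. Its level was between 1.29 and 2.70 CPM at 6 h (median 1.80), between 5.78 and 28.7 CPM at 24 h (median 12.8) and between 48.7 and 142 CPM at 48 h (median 81.5). None of the 3 groups overlapped another. The 2 steps were similar in size, at 2.92 ± 0.27 (edgeR adjusted p = 1e-08) and 2.72 ± 0.24 (edgeR adjusted p = 8.7e-08) on the log2 scale. The 24 h level differed from the mean of the other times by 0.10 ± 0.21 on the log2 scale. This contrast, too, holds part of the step the transcript was chosen by, so no p is given for it.

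FMt026657 had the largest fall of the second step. Its level ran from 38.7 to 112 CPM at 6 h (median 75.5), from 13.2 to 59.6 CPM at 24 h (median 37.6) and from 0.565 to 9.50 CPM at 48 h (median 1.12). All 48 h libraries lay below all 24 h libraries, although control 11, at 9.50 CPM, stood well above the others of its group. It fell by 4.23 ± 0.43 on the log2 scale in the second step (edgeR adjusted p = 1.4e-06). The first step, at -1.02 ± 0.35, missed the threshold with edgeR (adjusted p = 0.06) and DESeq2 (adjusted p = 0.069). It passed with limma-voom (adjusted p = 0.0056) and with edgeR on the 2 groups alone (adjusted p = 0.014). Of the 30 edgeR fits that left out 1 library, 3 passed. They lacked control 1 at 6 h or control 14 at 24 h (adjusted p = 0.049 each) or control 11 at 48 h (adjusted p = 0.0077). Both steps share the 24 h libraries, and the choice favoured high levels there, so a smaller first fall is partly built in.

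**Figure D3:**
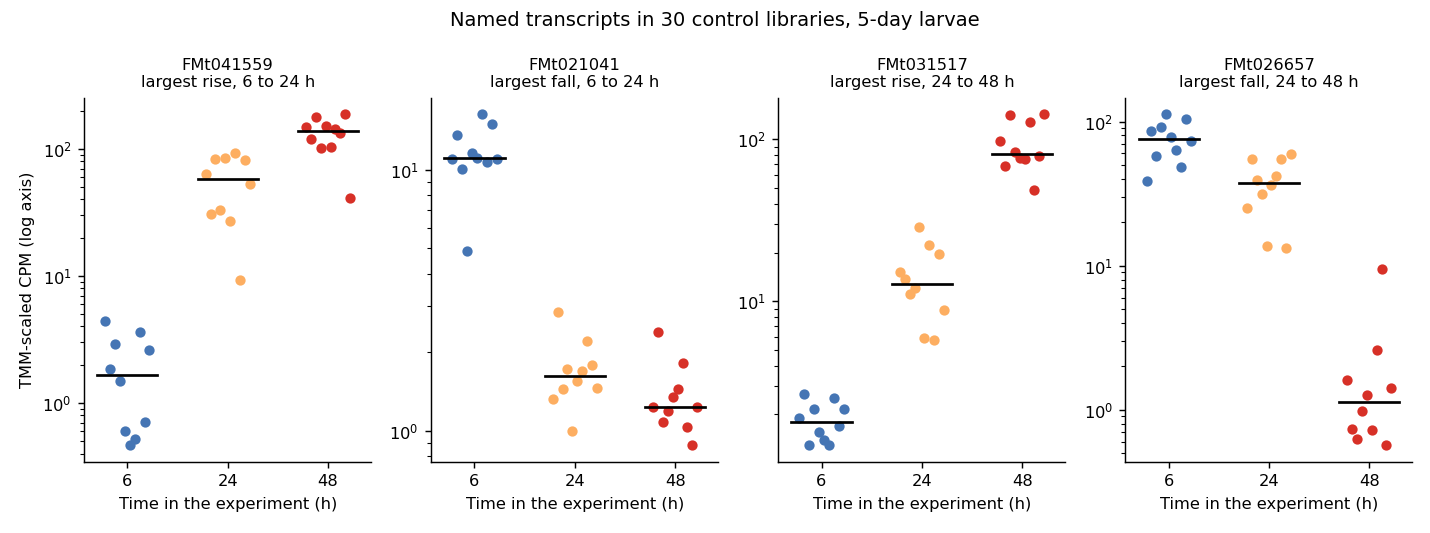
Levels of the 4 named transcripts in TMM-scaled CPM on a log axis, 1 panel per transcript, with 10 libraries per duration as points and the median as a bar. FMt041559 and FMt031517 climb from medians under 2 CPM to 139 and 81.5 CPM, FMt021041 drops by 24 h, and FMt026657 drops mainly between 24 and 48 h.

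The same steps were then read in libraries that took no part in the calls. In the 30 low-dose libraries of the same 3 sets, which carry the same library codes, the sign was the same for 96.9% of the transcripts that rose in the first step and 94.2% of those that fell, against 69.5% of all tested. For the second step the shares were 97.6% and 97.3%, against 74.8% of all. Of the 1589 first-step risers tested there, 803 also rose significantly at the low dose and 0 fell, and of the 1590 fallers 355 fell and 0 rose. At the low dose 7.25% of transcripts were called in the first step. These larvae were in propranolol, so they repeat the times and not the unexposed condition.

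Controls of the other ages carry other library codes. In the first step, 76.9% of the risers had the same sign at 4 days and 77.8% at 6 days, against 51% and 66.5% of all tested. The fallers differed between the ages, with 51.8% of the same sign at 4 days, near the 51% of all transcripts, and 84.4% at 6 days. Of the 1590 fallers tested at 4 days, 135 were called as falls there and 65 as rises. Among all 29751 transcripts tested at 4 days, 1233 were called as falls and 1839 as rises. In the second step the risers had the same sign in 87.8% at 4 days and 85.9% at 6 days, where all transcripts had 61.2% and 69.7%. The second-step fallers had it in 71.1% and 85.1%.

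**Figure D4:**
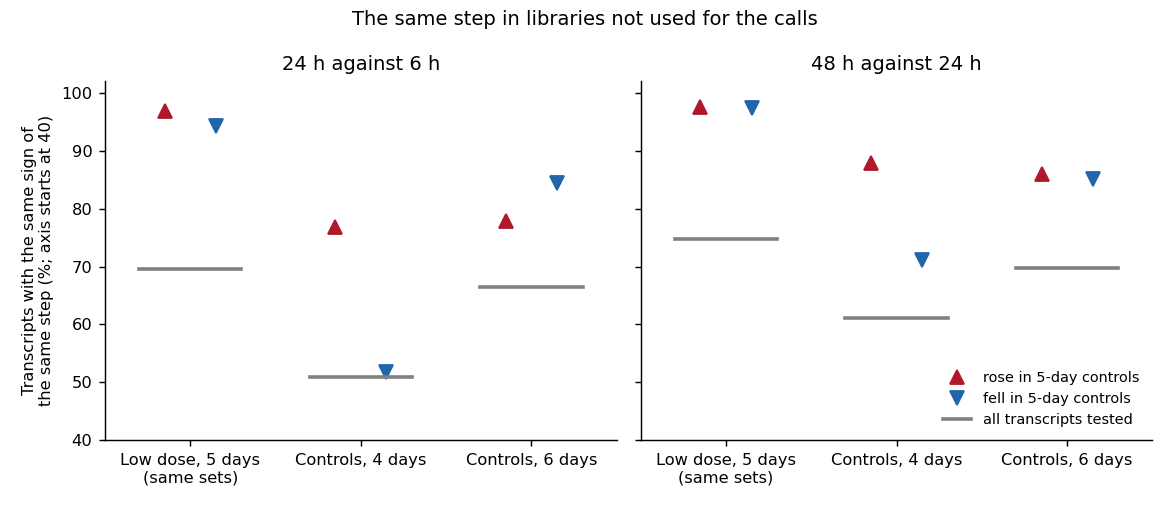
Percent of transcripts with the same sign of the same step in libraries not used for the calls (vertical axis from 40%), for transcripts that rose, that fell and for all tested, in the low dose at 5 days and in controls at 4 and 6 days. The low-dose shares of called transcripts lie above 94%, and the first-step fallers at 4 days, at 51.8%, lie beside the 51% of all transcripts.

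Whether a step differed at 5 days was tested directly in a fit of all 88 controls, as the 5-day change minus the mean of the 4-day and 6-day changes. The first step differed for 1024 of 32555 transcripts (3.15%), with the difference above 0 for 435 and below 0 for 589, and for 1656 without the 11 libraries of the 88 that stood far from their group. In the 435, the median log2 step was 0.42 at 5 days, -0.06 at 4 days and -0.20 at 6 days, and 299 of them rose at 5 days in that fit, which called 13.7% of all transcripts in this step. In the 589 the medians were -0.40, 0.25 and 0.19, and 338 fell at 5 days. These sets were chosen for that difference, so the medians describe them. The second step differed for 108 transcripts (0.332%), 23 above 0 and 85 below. In the 85 the median step was -0.32 at 5 days, 0.86 at 4 days and 0.18 at 6 days.

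The named transcripts were chosen for extreme steps at 5 days, so a larger step there than at other ages is partly built in, and no p is given for the step each was chosen by. The first-step rise of FMt041559 exceeded the mean of the other ages by 3.82 ± 0.70 (SE) on the log2 scale, and its second step differed by -1.94 ± 0.40. Both steps share the 24 h libraries, and the choice favoured high levels there. A lower second step is thus partly built in as well, and no p is given for it. At 5 days that step was 1.23, which lay between 6.40 at 4 days and -0.05 at 6 days. The medians of FMt041559 at 6, 24 and 48 h were 0.181, 0.271 and 20.6 CPM at 4 days and 71.8, 126 and 137 CPM at 6 days. The 5-day medians of 1.67, 58.1 and 139.7 CPM began between those of the other ages and ended beside the 6-day one. FMt031517 had medians of 0.681, 0.606 and 8.42 CPM at 4 days and 27.0, 62.9 and 59.0 CPM at 6 days. Its 5-day medians of 1.79, 12.8 and 81.3 CPM also began between those of the other ages. At 48 h the 5-day median lay above the 6-day one, with overlapping libraries. Its first step was larger at 5 days by 2.22 ± 0.50 (edgeR adjusted p = 0.0035). The second step, which it was chosen by, differed by 0.90 ± 0.43 and missed the threshold. At 5 days that step was 2.72, which lay between 3.89 at 4 days and -0.25 at 6 days.

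FMt026657 was highest in the youngest larvae, with medians of 130.4, 78.3 and 25.5 CPM at 4 days and 3.44, 0.640 and 0.431 CPM at 6 days. Its second step differed at 5 days by -3.22 ± 0.66. FMt021041 did not follow age in this way. Its 6 h medians were 7.68, 11.1 and 14.4 CPM at 4, 5 and 6 days, and it fell between 6 and 24 h at every age, by 1.06 ± 0.21 at 4 days (edgeR adjusted p = 0.00014) and by 0.94 ± 0.20 at 6 days (edgeR adjusted p = 3e-04), steps in which 8.29% and 19.4% of all transcripts were called. The 5-day step differed from the mean of these by -1.74 ± 0.26.

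**Figure D5:**
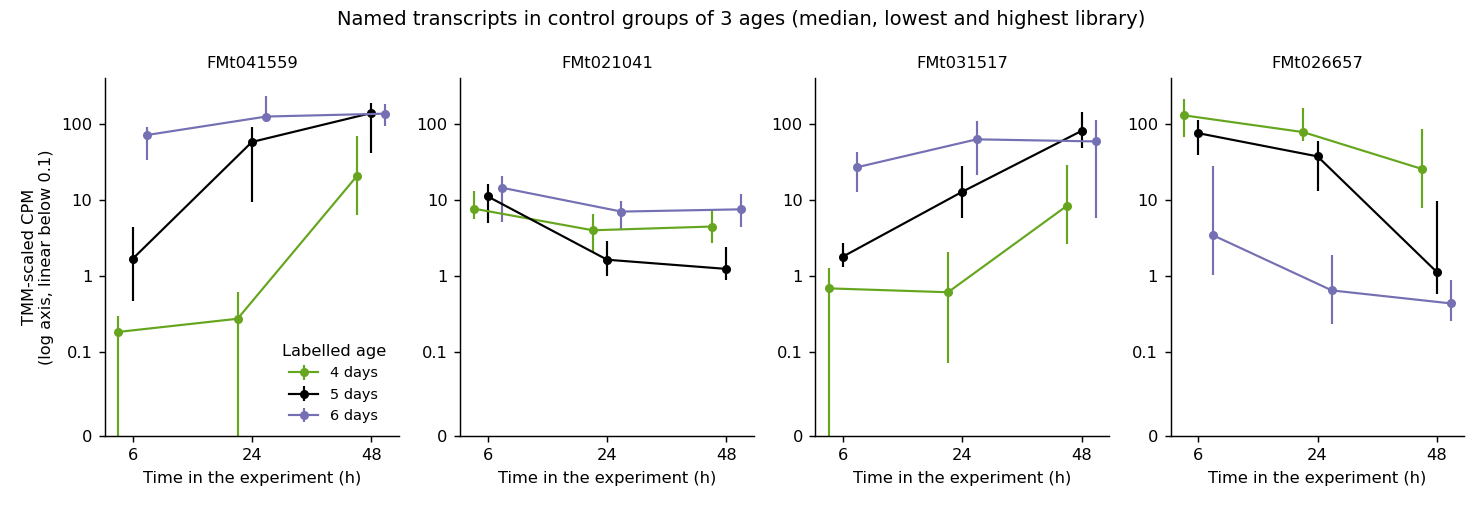
Levels of the 4 named transcripts in the 9 control groups, in CPM scaled by TMM over all libraries on a log axis that is linear below 0.1, with points at the group median and bars from the lowest to the highest library (10 libraries per group, 8 at 6 days and 48 h). FMt041559 and FMt031517 at 5 days lie between the 4-day and 6-day ranges at 6 h and overlap the 6-day ranges at 48 h. FMt021041 drops after 6 h at every age.

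An age axis without any 5-day library was set up from the 6 h controls of the other ages, where 9042 of 28700 transcripts (31.5%) differed between 6 and 4 days. Of the transcripts that rose at 5 days from 6 to 48 h, 85.5% were also higher at 6 days than at 4 days, and of those that fell 66.5% were lower, against 62.6% of all tested with the same sign. For the first step the shares were 76.5% and 57.3% (57.2% of all), and for the second 87.4% and 59.9% (56.5% of all). By sign alone, falls matched the axis little more often than all transcripts, a baseline that pools rises and falls. Counting only transcripts called on the axis, 617 of the 1562 span falls had the same sign and 200 the opposite. For first-step falls these were 437 and 267 of 1587, and for second-step falls 108 and 52 of 327. The shares called with the same sign were 39.5%, 27.5% and 33.0%, against 23.8%, 20.7% and 20.3% of all tested.

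Each library was given a score, the mean log2 CPM of 4739 transcripts higher at 6 days minus that of 4283 lower. The score ran from -1.03 to -0.52 at 6 h (median -0.74), from -0.68 to -0.32 at 24 h (median -0.47) and from -0.55 to -0.08 at 48 h (median -0.18). Neighbouring groups overlapped. Among the 24 libraries that did not stand apart, the 48 h scores (lowest -0.31) lay above all 24 h scores (highest -0.32), while the 6 h scores (highest -0.52) still overlapped the 24 h scores (lowest -0.60).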

How the data were processed

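The deposited values are whole-number read counts per transcript, made by the authors. Per the labels' protocols, libraries were made from 250 ng RNA with the SENSE mRNA-Seq kit V2, and per the design text of the series the reads were mapped to known fathead minnow transcripts. The submitters' processing notes name edgeR 3.26.8, limma 3.40.6 and bcl2fastq 2.19.1 without saying what each did. Which aligner, counting rule and build they used is not given in the sources used here, so transcripts of 1 gene may share reads. The lowest total of a transcript over the table was 166 counts.

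The 30 libraries were fitted together with edgeR 4.0.16 in R 4.3.3 (filterByExpr, TMM, robust quasi-likelihood F-tests, false discovery rate 0.05), and the 88 controls likewise. The standard error was the log2 fold change divided by the square root of F. Log2 CPM used a prior count of 2. Named transcripts were the largest rise and fall of each step among called ones with a mean log2 CPM of at least 1 and no overlap. Alternatives used limma 3.58.1, DESeq2 1.42.0, RLE size factors, no filter, a block, sums of adjacent numbers, other sets of libraries and leaving out each library. Tables, permutation tests and plots used Python 3.11.15, NumPy 2.4.6, SciPy 1.17.1 and matplotlib 3.10.9. The procedure was tested on simulated data. Those counts were drawn independently, with no library set apart as a whole, so that test does not bear on the libraries that stood apart. The groups, tests and rules were chosen with earlier results of these data known, and the counts without single far libraries were added after seeing the data.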

Additional observations from a re-analysis of the deposited data

Results flagged for a closer look

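Among 27 groups of 10 values checked for a sample far from the others, 3 had one, and chance gives about 1 in 20. The check uses the gap beside the outermost value, so 2 libraries lying together at 1 end can escape it. The 2 libraries of each group with a low similarity to the rest were not flagged for that measure. FMt026657 was at 9.50 CPM in control 11 at 48 h. Control 14 at 48 h had counts above 0 for 33796 transcripts, the fewest of its group. In control 5 at 6 h the 10 most abundant transcripts took 14.0% of the counts.

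Over all transcripts, the difference in log2 fold change between 5 days and the mean of the other ages passed the edgeR test for 1024 in the first step (3.15%) and 108 in the second (0.332%). The named transcripts were chosen for their 5-day steps, so how many of them passed supports nothing. For the steps they were chosen by, the differences were 3.82 for FMt041559, -1.74 for FMt021041 and -3.22 for FMt026657. In the other step FMt041559 was at -1.94, a direction that the choice by its first step also favoured. Its 5-day change in that step, 1.23, lay between 6.40 at 4 days and -0.05 at 6 days. FMt031517 was at 2.22 in its other step (edgeR adjusted p = 0.0035).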

How the results depend on the processing

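No named transcript's step changed sign. The balance of higher and lower calls did turn, at 24 h against the other times from 473 and 488 to 584 and 470 with limma-voom. RLE size factors, no filter, limma-voom and the fits of only the groups compared kept every count within 1.5 times. With DESeq2 the second step had 1512 changed transcripts and the 24 h contrast 1742. With sums of adjacent numbers they had 579 and 322, and with all controls in 1 fit 1547 and 1869. Without the 6 libraries far from their group, the first step, the second, the whole span and the 24 h contrast had 7738, 3342, 7053 and 4820. Those are 25.6%, 11.1%, 23.4% and 16% of 30202 tested. Without 11 of the 88 controls, the age difference of the first step had 1656. The cause was not tested. Leaving out each library in turn gave 2470 to 6592, 691 to 1592, 3336 to 4928 and 466 to 3730. DESeq2 was not run on the age differences.

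The replicate block gave 2799, 787, 3383 and 712, and 1050 and 104 for the age differences. No pairing by label number was evident: same-numbered libraries of 2 groups had median correlations of -0.0068, -0.049 and 0.030, with 2, 4 and 3 of 10 over 0.1. The highest was 0.42, between 24 and 48 h. Differently numbered libraries of 2 groups were not set beside them, so these values cannot decide on pairing. With the block the second step of FMt041559 was 1.30 (edgeR adjusted p = 0.066; 0.0037 to 0.066 over 9 alternatives) and the first of FMt026657 passed, at -1.17.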

Other observations

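Few transcripts went from near absence to clear presence. Between group medians under 1 CPM and of at least 5 CPM, 11 transcripts appeared and 3 disappeared from 6 to 48 h. All of them passed the test, against 12.7% of all tested. They were picked by a large difference in the same libraries, so passing was close to fixed by the choice. The first step alone held 2 that appeared and 1 that disappeared, and the second held 3 and 4. At 6 h 3556 transcripts had a median under 1 CPM.

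Called transcripts lay beside each other in the numbering of identifiers more often than transcripts in general. Of the first-step risers with a tested neighbour 24.4% had a neighbour that rose, against 8.55% of all transcripts, and of the fallers 15.8% against 8.17%. In the second step the shares were 14.2% against 3.24% and 11.1% against 1.81%. What the numbering follows is not given, nor how reads shared by similar transcripts were assigned.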
